A study of Homo sapiens with 12 samples.

Results

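KISS1 and 8 other genes reviewed as metastasis suppressors (CD82, NME1, BRMS1, MTSS1, MAP2K4, ARHGDIB, RECK and PEBP1) were followed in MDA-MB231 cells, a human triple-negative breast cancer line with mesenchymal features, after inhibition or knockdown of DOT1L. All probes that the array annotation assigned to these symbols, or to their older names, were taken: 15 of 47322 probes, for 9 of 20024 named genes. KISS1 was chosen because its signal was known to be low in the siRNA-1 samples, so its values in siRNA-1 against the control are a description and carry no test, and the same was done for the other 8 genes. The study asked how loss of histone H3K79 methylation changes transcription. RNA was hybridised to 12 Illumina HT-12 v4 bead arrays, and each of 6 groups had 2 samples that the labels call biological replicates. Cells were kept for 14 days in 0.1% DMSO (control), in compound 1 (EPZ004777) at 1 or 5 μM, or in compound 2 (named Compound 55 in the labels and SYC-522 in the study's text) at 2 or 10 μM. In what follows the doses of 1 μM (compound 1) and 2 μM (compound 2) are the low doses, and 5 μM and 10 μM the high doses. For the last group, cells were transfected with 10 nM DOT1L siRNA-1 and kept for 7 days. The siRNA-1 samples therefore differed from the control in time and in transfection as well, and these cannot be told apart from the knockdown, since no transfected control was among the arrays analysed here.

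Metastasis suppressor genes are defined by what they do in animals: when they are put back, spread to distant organs is reduced while the primary tumour still grows. Their products sit at many points of the cell, from secreted peptides and membrane proteins to kinases and chromatin complexes. KISS1 encodes the precursor of the kisspeptins, secreted peptides that act on the G protein-coupled receptor KISS1R, and was first studied as a metastasis suppressor in melanoma cells. DOT1L is the histone methyltransferase of H3K79, and the methyl mark it places is one found over transcribed genes. Compounds 1 and 2 inhibit this enzyme, while an siRNA lowers its mRNA.

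The promoter windows of KISS1, CD82 and NME1 are shown because KISS1 and CD82 differed most between siRNA-1 and the control and NME1 was the gene with most calls under the compounds. Each window runs from 250 bases before to 50 bases after a start of transcription and is written 5′ to 3′ on the gene's own strand (RefSeq, GRCh38.p14). Capitals mark GGGCGG, the GC box bound by Sp1-type factors, and TATAAA, the TATA box, each searched on both strands (CCGCCC and TTTATA on the other). The window of KISS1 is chr1:204196442-204196741 (minus strand), that of CD82 chr11:44565413-44565712 (plus strand) and that of NME1 chr17:51153309-51153608 (plus strand). The CD82 gene as annotated begins at 44564409, upstream of this window, so the window is not that of its outermost start.
KISS1: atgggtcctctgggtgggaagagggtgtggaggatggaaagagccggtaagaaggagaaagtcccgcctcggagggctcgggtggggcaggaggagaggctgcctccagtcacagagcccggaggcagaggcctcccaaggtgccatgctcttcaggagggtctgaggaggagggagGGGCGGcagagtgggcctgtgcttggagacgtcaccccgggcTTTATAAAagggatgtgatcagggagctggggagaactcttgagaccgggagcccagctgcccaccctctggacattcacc
CD82: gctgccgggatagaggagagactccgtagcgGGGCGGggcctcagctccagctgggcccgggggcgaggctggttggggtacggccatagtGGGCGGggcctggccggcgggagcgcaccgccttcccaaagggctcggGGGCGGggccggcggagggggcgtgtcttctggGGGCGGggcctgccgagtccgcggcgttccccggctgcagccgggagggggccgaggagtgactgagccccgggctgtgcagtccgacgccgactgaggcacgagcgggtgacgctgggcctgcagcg
NME1: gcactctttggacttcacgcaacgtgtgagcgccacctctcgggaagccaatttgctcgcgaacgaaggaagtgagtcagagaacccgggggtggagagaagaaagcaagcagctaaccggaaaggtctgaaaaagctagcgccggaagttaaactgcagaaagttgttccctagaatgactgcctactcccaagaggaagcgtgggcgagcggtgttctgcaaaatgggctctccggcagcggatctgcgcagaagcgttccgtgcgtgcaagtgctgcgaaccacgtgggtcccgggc
The 3 windows differed in these letters. KISS1 held 1 GC box and overlapping matches to TATAAA on both strands, the one on its own strand with its first base at position -29 from the start, CD82 held 4 GC boxes and no TATAAA, and NME1 held neither. Of 35116 promoter windows of the same length, 45.0% held a GC box and 11.5% a TATAAA match on either strand. These matches describe the letters only.

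The arrays were of like quality. Between 34.0% and 36.7% of probes were detected per array (detection p below 0.05), detection began at signals of 26.4 to 38.5, and replicate arrays correlated at r = 0.991 to 0.994. VIM, CD44, CAV1, MSN and EGFR, markers of this line, were detected on all 12 arrays, SPARC on none, and the luminal markers ESR1, FOXA1 and PGR on none, GATA3 on 2 and ERBB3 on 12. Of 5 leukocyte markers with a probe, PTPRC, CD3E and ITGAM were detected on no array, MS4A1 on 4 (17.6 to 45.2 over all arrays) and CD79A on 10 (20.5 to 49.0). The melanocyte markers with a probe (MLANA, PMEL, TYR) were detected on none. Of 3 endothelial markers CDH5 and VWF were detected on none, whereas PECAM1 was detected on 11 (21 to 169.9 over all arrays). The probe for DOT1L itself gave 24.6 and 22.6 in the control and 26.5 and 18.3 with siRNA-1, all below detection, so the knockdown could not be read from these arrays. Signals are background-subtracted bead intensities. Levels are their log2 values after a correction for the remaining background, centred so that 0 is the median of probes detected on every array, and a fold change is a difference of levels between groups on that log2 scale. A probe was called when its adjusted p from the moderated test over 17910 probes was below 0.05. With 2 arrays per group, p-values set each difference against the spread between replicate arrays, pooled over all 6 groups and moderated across probes.

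KISS1 was lower in every treated group than in the control, by a modest amount with the compounds and down to the array background with siRNA-1. Its signal was 376.0 and 379.1 in the 2 control samples. It was 302.7 and 352.9 with low-dose and 321.4 and 277.5 with high-dose compound 1. Low-dose compound 2 gave 228.5 and 278.4, and high-dose compound 2 gave 267.1 and 230.7. With siRNA-1 it was 12.3 and 15.0, below detection on both arrays. All 8 compound arrays thus lay below both control arrays, also as normalized levels, and the siRNA-1 arrays lay far below all others. In normalized level, 14.7% of all probes had all 8 compound arrays below both controls. As compared to the control, KISS1 fell by 0.65 on the log2 scale with low-dose compound 2 (SE 0.13, adjusted p = 0.0283), to 0.635 times the control level. This was the 1 compound comparison in which it passed the threshold. The difference was -0.52 with high-dose compound 2 (adjusted p = 0.0581), -0.41 with high-dose compound 1 (adjusted p = 0.13) and -0.28 with low-dose compound 1 (adjusted p = 0.226), each with an SE of 0.13. The call with low-dose compound 2 was lost without control replicate 2 or either array of that group, and kept without control replicate 1. The KISS1 difference itself did not hang on the control array: it was -0.654 without control replicate 1 and -0.655 without control replicate 2 (SE 0.164 in both). It was -0.757 without replicate 1 of low-dose compound 2 and -0.552 without replicate 2.

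With siRNA-1 the measured means were -3.31 against 0.17 in the control, a measured difference of -3.48 that rests on signals below detection. Because neither siRNA-1 array detected it, its level there has only an upper limit, and KISS1 was at least 8.46-fold lower than in the control (the siRNA-1 level set to the lowest detected signal of each array). KISS1R, the kisspeptin receptor, had a probe that was detected on 1 of 12 arrays (34.3, high-dose compound 1).

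**Figure D1:**
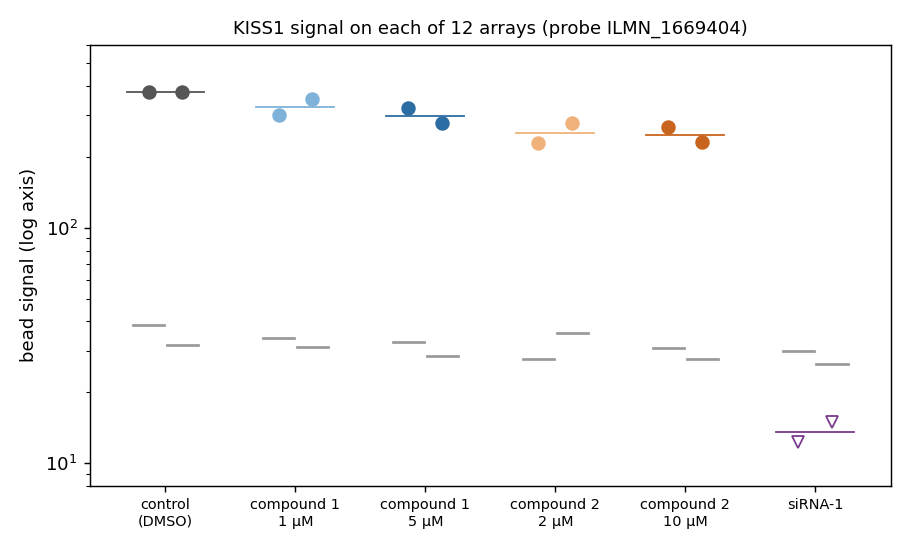
Bead signal of KISS1 (log axis) on each of 12 arrays by treatment group. Filled circles are arrays on which the probe was detected, open triangles those on which it was not, coloured lines the geometric mean of a group, and short grey lines the lowest signal called detected on each array. The 2 control samples (376.0 and 379.1) lie above all 8 compound samples (228.5 to 352.9), and the 2 siRNA-1 samples (12.3 and 15.0) lie below the detection level.

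The 2 doses of each compound were compared with each other in arrays that do not share the control. KISS1 with high-dose compound 1 was -0.13 against the low dose (95% interval -0.42 to 0.16), and with high-dose compound 2 it was 0.13 (-0.16 to 0.43). Over the 14 member probes tested, the dose differences ran from -0.21 to 0.30 for compound 1 and from -0.17 to 0.18 for compound 2. None of the 14 was called by limma in either dose comparison and none had an unadjusted p below 0.05. Over all 17910 probes the share called was 0% in both dose comparisons, with 1256 (compound 1) and 562 (compound 2) probes at an unadjusted p below 0.05. Doses of compounds 1 and 2 differed from each other, so their values stand side by side without a comparison between compounds.

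Few of the 14 tested member probes passed the threshold under the compounds. With high-dose compound 1, 0 were called, where 2.17% of all probes were (5 member probes had an unadjusted p below 0.05 in limma). With high-dose compound 2 2 were called, both lower, where 3.16% of all probes were called and 0.916% called lower. The count was again 2, both lower, with low-dose compound 1 (5.25% of all probes called, 2.35% lower) and with low-dose compound 2 (3.62% called, 1.41% lower). The probes behind these 6 calls belonged to KISS1 and NME1. The median log2 fold change of the member probes was -0.11 with high-dose compound 1, -0.11 with high-dose compound 2, -0.15 with low-dose compound 1 and -0.20 with low-dose compound 2, beside -0.06, -0.04, -0.06 and -0.06 for all probes. All 8 compound arrays lay below both control arrays in normalized level for 4 of the 14 probes (KISS1, 2 of NME1 and PEBP1), where 14.7% of all probes did so, and above both for 2 (MTSS1 and RECK), where 8.97% did. The RECK probe counted there passed the detection filter only through the treated groups. Called probes were mostly higher under the compounds and the split moved with the centring: 72.7%, 71%, 55.3% and 61.2% of calls were higher with high-dose compound 1, high-dose compound 2, low-dose compound 1 and low-dose compound 2, and 91.2%, 86.4%, 87.7% and 92.6% when arrays were centred on all probes. In siRNA-1 against the control 10.2% of all probes were called (4.96% higher and 5.27% lower). This contrast was part of how the genes were chosen, so no call is given for the member probes there.

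**Figure D2:**
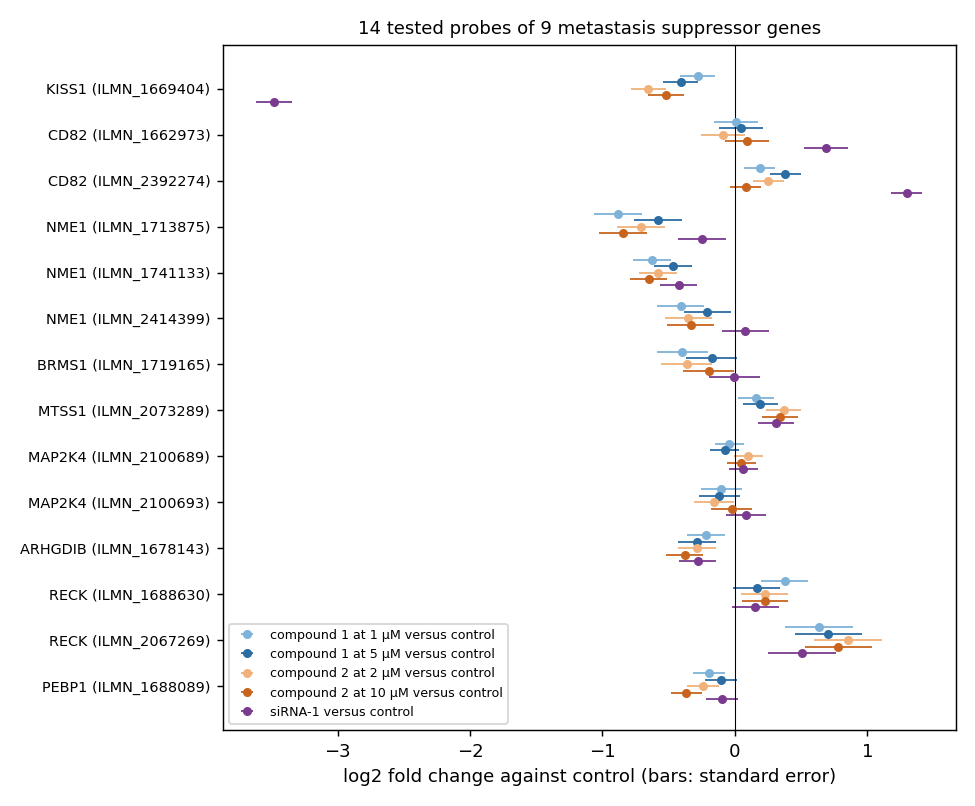
Log2 fold change against the control for the 14 tested probes of 9 metastasis suppressor genes (horizontal axis), by treatment (colours), with bars for the standard error of the fit. Most points lie within 0.5 of 0, KISS1 with siRNA-1, where it was not detected, lies at a measured -3.48, the brighter CD82 probe with siRNA-1 at 1.30, and 2 of 3 NME1 probes lie left of 0 in all 5 comparisons.

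Among the membrane proteins, CD82 (KAI1) is a tetraspanin that organises integrins and growth factor receptors at the cell surface. Its brighter probe (ILMN_2392274) gave 280.3 and 299.8 in the control and 696.3 and 701.0 with siRNA-1. Both siRNA-1 arrays were above every other array, and the difference from the control was 1.30 (SE 0.12). Under the compounds the same probe ran from 286.0 to 428.3. In normalized level 7 of 8 compound arrays were above both controls, but no comparison passed the threshold: the differences were 0.38 with high-dose compound 1 (adjusted p = 0.114), 0.25 with low-dose compound 2, 0.19 with low-dose compound 1 and 0.08 with high-dose compound 2. The dimmer CD82 probe (ILMN_1662973) gave 189.9 and 152.9 in the control and 302.3 and 241.3 with siRNA-1, a difference of 0.69 (SE 0.17). Here the compound arrays (160.7 to 211.8) overlapped the control, with differences of -0.09 to 0.09. Both probes thus were higher with siRNA-1 than with the control, by unequal amounts.

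RECK, a membrane-anchored inhibitor of matrix metalloproteinases, was dim. One of its probes (ILMN_2067269) gave 39.2 and, below detection, 28.1 in the control. Compound 1 gave 89.4 and 48.0 at the low and 90.4 and 54.6 at the high dose. Compound 2 gave 54.5 and 116.8 at the low and 80.3 and 55.2 at the high dose, and siRNA-1 gave 45.1 and 59.5. All treated arrays were above both controls, and replicates of a group differed widely. In normalized level, 8.97% of all probes had all 8 compound arrays above both controls. This RECK probe passed the detection filter only through the treated groups, so its place above the controls is a description and carries no test. The differences under the compounds were 0.63 to 0.85 with an SE of 0.26, and none was called. The other RECK probe (ILMN_1688630) was detected on all 12 arrays at 48.1 to 88.8, and its differences of 0.16 to 0.37 were within the replicate spread (adjusted p = 0.221 to 0.647). MTSS1 encodes an I-BAR protein that bends the membrane and binds actin. Its detected probe (ILMN_2073289) gave 82.3 and 74.9 in the control and 93.2 to 137.4 under the compounds. All 8 compound arrays were above both controls, as for 8.97% of all probes in normalized level, while no difference passed the threshold (0.16 to 0.37, SE 0.13, adjusted p = 0.137 to 0.508). The other MTSS1 probe was detected on 2 of 12 arrays, did not pass the detection filter and was not tested.

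NME1 (NM23-H1), a nucleoside diphosphate kinase long studied as a metastasis suppressor, was lower under the compounds. Its brightest probe (ILMN_1741133) gave 8722.3 and 11229.5 in the control. Compound 1 gave 6804.9 and 6746.8 at the low dose and 8235.2 and 7012.1 at the high dose. Compound 2 gave 6011.4 and 8395.6 at the low dose and 6620.1 and 5542.4 at the high dose. All 8 compound arrays were below both controls, which themselves lay apart, control replicate 2 being the higher. In normalized level, 14.7% of all probes had all 8 compound arrays below both controls. NME1 fell by 0.65 with high-dose compound 2 (adjusted p = 0.0321), by 0.63 with low-dose compound 1 (adjusted p = 0.0308) and by 0.58 with low-dose compound 2 (adjusted p = 0.0482), each with an SE of 0.14. With high-dose compound 1 the difference was -0.47 (adjusted p = 0.109).

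The dimmer NME1 probe ILMN_1713875 gave 170.5 and 247.5 in the control and 85.9 to 152.1 on the 8 compound arrays. It fell by 0.88 with low-dose compound 1 (SE 0.18, adjusted p = 0.0219) and by 0.84 with high-dose compound 2 (adjusted p = 0.031). It was -0.71 with low-dose compound 2 (adjusted p = 0.0548) and -0.58 with high-dose compound 1 (adjusted p = 0.118). The 3rd NME1 probe, ILMN_2414399, lay below both controls on 7 of 8 compound arrays and was not called (-0.21 to -0.41, adjusted p = 0.182 to 0.548). With siRNA-1 the 3 probes differed from the control by -0.42, -0.25 and 0.08 in the same order. NME1, NME2 and the read-through transcript NME1-NME2 share sequence, probe sequences were not used here, and how far each probe reads a neighbour is uncertain. All 5 NME1 calls under the compounds were lost without control replicate 2, where the differences became -0.40 to -0.64. Each call was also lost without a compound array: that of ILMN_1713875 with high-dose compound 2 without replicate 2 of that group, the others without either compound array. Without control replicate 1 they were kept, and both probes then passed with high-dose compound 1 also (adjusted p = 0.0368 and 0.0365).

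**Figure D3:**
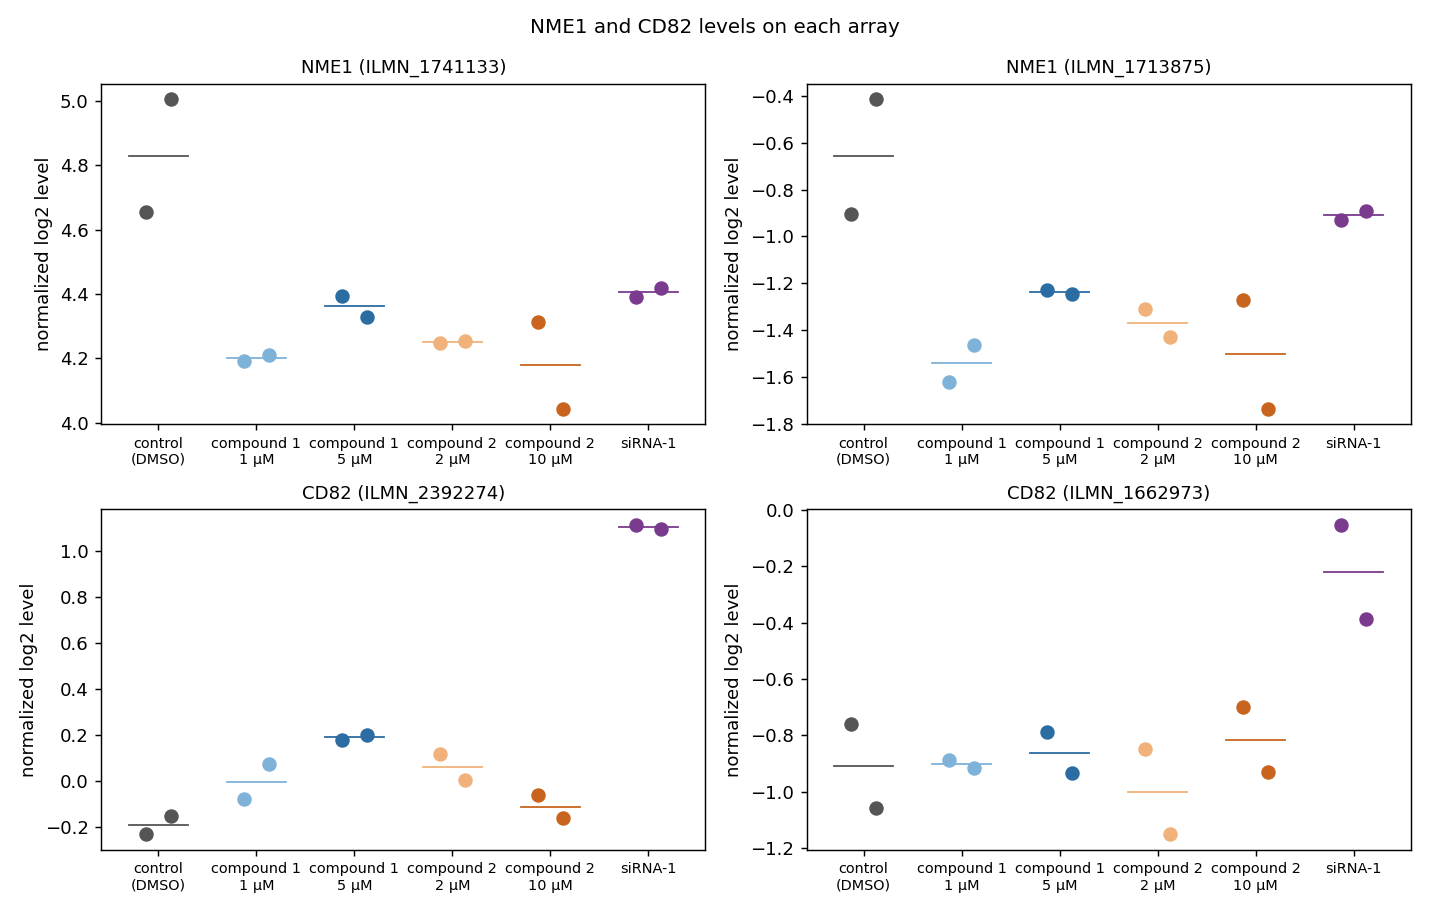
Normalized log2 levels (0 is the median of probes detected on all arrays) of 2 NME1 and 2 CD82 probes on each array by treatment group, with circles for arrays and lines for group means. The NME1 levels of all 8 compound arrays lie below both controls, whose replicates lie apart (4.66 and 5.01 for the brighter probe), and the CD82 levels of both siRNA-1 arrays lie above all others.

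The other members act inside the cell and were close to the control. BRMS1, a subunit of SIN3-HDAC co-repressor complexes, gave 148.6 and 166.7 in the control and 114.3 to 161.2 under the compounds, with differences of -0.18 to -0.40 (SE 0.19, adjusted p = 0.236 to 0.654). ARHGDIB, a cytosolic protein, gave 7549.9 and 8936.2 in the control and 5666.2 to 8283.0 under the compounds. Its differences were -0.22 to -0.38 (SE 0.14, adjusted p = 0.154 to 0.373). PEBP1 (Raf kinase inhibitor protein) gave 1334.7 and 1496.5 in the control and 1010.7 to 1576.0 under the compounds. Its largest difference was -0.37 with high-dose compound 2 (SE 0.12, adjusted p = 0.114), and the other 3 were -0.11 to -0.24. MAP2K4 (MKK4), which phosphorylates JNK and p38, had 2 probes, detected on all 12 arrays, and its differences of -0.16 to 0.10 were within the replicate spread. None of these 5 probes passed the threshold in a compound comparison. With siRNA-1, ARHGDIB was at -0.28 and the other 4 probes between -0.10 and 0.08. Unadjusted 95% intervals of a single fold change reached 0.34 to either side at the median of all probes. At such a probe, changes smaller than this could not be told from none. Calls rest on adjusted p, and larger differences also stayed uncalled, as with BRMS1 (-0.40) and PEBP1 (-0.37).

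To place these genes, 151 further genes of the pathways they act in were taken in 11 lists, of which 105 were tested by their brightest probe. The lists were chosen with earlier results of these data known, so the shares below are a description and no test of the lists. The same limit holds for the adjusted p-values of list genes, those with siRNA-1 included. With high-dose compound 1, 3 of the 105 were called higher (2.86%, where 2.02% of all 10767 genes were), and 0 lower (0.474% of all genes). With high-dose compound 2 5 were higher (4.76%, beside 2.91% of all genes) and 0 lower (0.78%). With low-dose compound 1 11 were higher and 1 lower (10.5% and 0.952%, beside 3.73% and 2% of all genes), and with low-dose compound 2 8 were higher and 0 lower (7.62%, beside 2.8% higher and 1.29% lower of all genes). With siRNA-1 9 were higher and 8 lower (8.57% and 7.62%, beside 5.99% and 5.86%). The counts of higher genes include GSN in every comparison. GSN passed the detection filter only through the treated groups, so its calls carry no test. The control arrays bore on these calls: most calls of named list genes with the compounds were lost without control replicate 2, and few without control replicate 1. Calls over all probes also moved widely when 1 array was left out, and their share lost without control replicate 2 is not given here. Some calls were lost with hardly any change in the difference. NME1-NME2 with low-dose compound 1 was -0.692 without control replicate 1 and -0.687 without control replicate 2, and was called in neither fit. Other differences moved more, as given with each gene below. With siRNA-1 most calls of named list genes were kept whichever array was left out.

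The list of RECK held the metalloproteinases it keeps in check, its partners and the secreted inhibitors TIMP1 to TIMP4. Of its 7 tested genes 2, 1, 2 and 2 were higher with high-dose compound 1, high-dose compound 2, low-dose compound 1 and low-dose compound 2, and 4 with siRNA-1, none lower. The medians were 0.40, 0.46, 0.42, 0.43 and 0.56, where those of all genes were between -0.05 and -0.02. TIMP3, a matrix-bound inhibitor of metalloproteinases, gave 276.4 and 223.7 in the control. It gave 602.4 to 847.3 on the 8 compound arrays, and 729.8 and 791.1 with siRNA-1, so no treated array overlapped the control. TIMP3 rose by 1.60 with high-dose compound 1 (adjusted p = 0.000151), by 1.65 with high-dose compound 2 (adjusted p = 0.000177), by 1.57 with low-dose compound 1 (adjusted p = 0.000264), by 1.30 with low-dose compound 2 (adjusted p = 0.00142) and by 1.62 with siRNA-1 (adjusted p = 1.86e-05), each with an SE of 0.13. These 5 calls were kept whichever array was left out. ADAM10, a sheddase, rose by 0.86 with high-dose compound 1 (adjusted p = 0.0496) and by 0.70 with siRNA-1 (adjusted p = 0.0467), and without control replicate 2 neither call was kept. The compound call was also lost without either compound array, and the siRNA-1 call without siRNA-1 replicate 2. MMP14, a membrane metalloproteinase that can also cleave kisspeptins, rose by 0.74 with siRNA-1 (adjusted p = 0.00626). This call was likewise lost without control replicate 2, and also without siRNA-1 replicate 1. The calls not yet named were TIMP2 with low-dose compound 1 (0.59) and low-dose compound 2 (0.61), and TIMP1 with siRNA-1 (0.56), named after their values were seen.

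Other genes reviewed as metastasis suppressors moved in both directions. Of 9 tested, 1, 2, 3 and 2 were higher with high-dose compound 1, high-dose compound 2, low-dose compound 1 and low-dose compound 2, none lower, and 2 were higher and 2 lower with siRNA-1. Their median was between -0.12 and 0.12 with the compounds and -0.19 with siRNA-1. GSN, the actin-severing protein gelsolin, was below detection on both control arrays (34.1 and 21.6) and detected on all 10 treated arrays (82.2 to 110.8). It passed the detection filter only through the treated groups, so its calls in all 5 comparisons set those groups against a background level. These calls carry no test, and they are part of the counts of list genes higher given above. Against the detection level of the control arrays, GSN was at least 2.03-fold higher with high-dose compound 1, 2.32-fold with high-dose compound 2, 1.9-fold with low-dose compound 1, 2.01-fold with low-dose compound 2 and 2.33-fold with siRNA-1. Without control replicate 2 its measured differences were 1.03, 1.22, 0.93, 1.01 and 1.23 in the same order. The GSN calls with compound 1 at both doses and with low-dose compound 2 were lost there. NDRG1, a stress-responsive cytoplasmic protein, gave 2462.9 and 1059.4 in the control, 3805.6 to 5428.8 under the compounds, and 3075.2 and 3851.8 with siRNA-1. On the log2 scale the 2 control arrays differed from each other more than any treated array did from control replicate 1. NDRG1 rose by 1.46 with high-dose compound 2 (adjusted p = 0.0216), by 1.51 with low-dose compound 1 (adjusted p = 0.0159), by 1.46 with low-dose compound 2 (adjusted p = 0.0242) and by 1.15 with siRNA-1 (adjusted p = 0.0241), each with an SE of 0.28. It was 1.22 with high-dose compound 1 (adjusted p = 0.0508). Without control replicate 2 these 4 called differences became 0.85, 0.90, 0.85 and 0.54 in the same order, and the call was lost except with low-dose compound 1. Without control replicate 1 they were 2.07, 2.12, 2.07 and 1.76. Leaving out either array of the treated group ended each of the 4 calls, that with low-dose compound 1 included, with differences of 1.0 to 1.54.

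DLC1, a GTPase-activating protein, was lower with siRNA-1 and was not called with the compounds. Its signal was 937.4 and 727.5 in the control, 340.9 and 326.8 with siRNA-1 and 766.1 to 1134.0 on the compound arrays. DLC1 fell by 1.20 with siRNA-1 (SE 0.18, adjusted p = 0.00124), and its differences with the compounds were -0.10 to 0.24 (adjusted p = 0.453 to 0.796). AKAP12, a scaffold of protein kinases, was the other gene lower with siRNA-1 (-0.73, adjusted p = 0.00801, named after its values were seen). TXNIP, the thioredoxin-interacting protein and a reported regulator of KISS1, gave 2619.9 and 1390.8 in the control and 3344.2 to 4538.1 on the compound arrays. It rose by 1.09 with low-dose compound 1 (SE 0.23, adjusted p = 0.0237) and was 0.88 to 0.95 in the other 3 (adjusted p = 0.0574 to 0.0585). With siRNA-1 it was -0.19 (adjusted p = 0.661). The TXNIP call was lost without control replicate 2, where the difference became 0.64 (adjusted p = 0.122), and without either compound array.

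**Figure D4:**
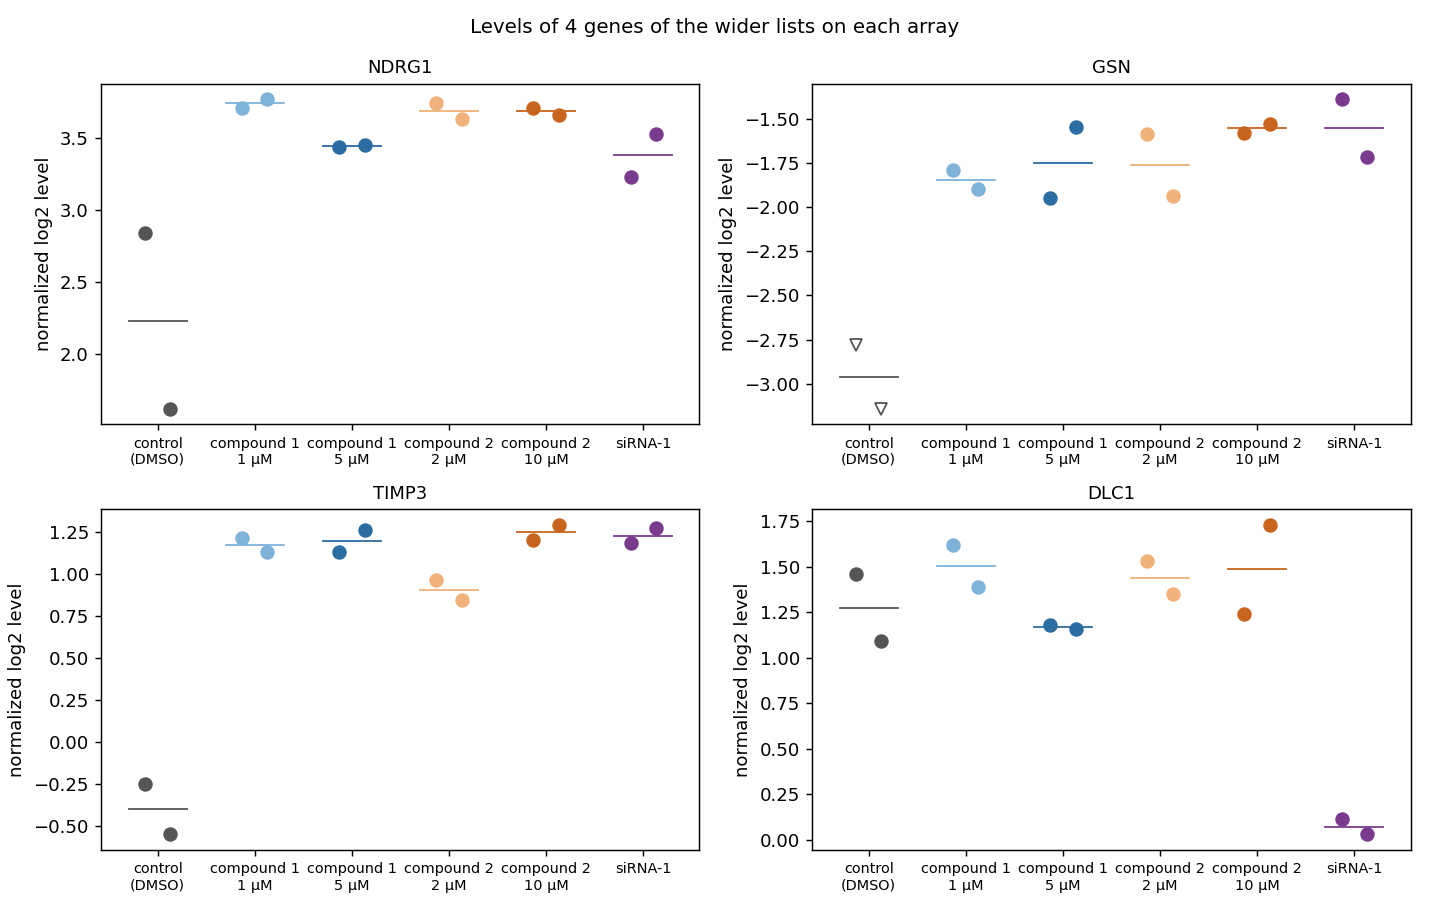
Normalized log2 levels of NDRG1, GSN, TIMP3 and DLC1 on each array by treatment group. Circles are detected, open triangles not detected, and lines are group means. TIMP3 and GSN lie above both controls on all 10 treated arrays, the 2 NDRG1 controls lie apart (2.84 and 1.62), and DLC1 is low on the 2 siRNA-1 arrays.

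In the pathways next to KISS1 itself, 4 genes of receptor signalling were tested. ARRB1 (beta-arrestin 1), which desensitises G protein-coupled receptors, gave 163.1 and 78.3 in the control, 236.1 and 250.0 with low-dose compound 1 and 353.3 and 405.6 with siRNA-1. It rose by 0.92 with low-dose compound 1 (adjusted p = 0.0427) and by 1.68 with siRNA-1 (adjusted p = 0.000684), each with an SE of 0.23. It was 0.72 to 0.86 in the other 3 (adjusted p = 0.0783 to 0.107). Without control replicate 2 the difference of ARRB1 with low-dose compound 1 became 0.45 (adjusted p = 0.214), and this call was also lost without either compound array. The siRNA-1 call was kept whichever array was left out. Of 13 tested tetraspanins and partners of CD82, 0 were called with the compounds and TSPAN9 was called with siRNA-1. TSPAN9 gave 897.0 and 737.6 in the control and 1659.9 and 1710.9 with siRNA-1, a rise by 1.11 (SE 0.13, adjusted p = 0.000186). Of 5 further NME genes tested, the NME1-NME2 read-through probe (7011.4 and 7099.9 in the control) was called lower with low-dose compound 1 (-0.69, SE 0.16, adjusted p = 0.0339). Its differences in the other compound comparisons were -0.44 to -0.64 (adjusted p = 0.0521 to 0.172). The NME1-NME2 call was lost without either control replicate (adjusted p = 0.0639 and 0.173) and without replicate 1 of low-dose compound 1, where the difference became -0.43 (adjusted p = 0.208).

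For the kinase cascades, the feedback inhibitors of ERK signalling were the genes called with the compounds in the list of PEBP1. SPRY2 rose by 0.68 with low-dose compound 1 (adjusted p = 0.0215) and by 0.72 with low-dose compound 2 (adjusted p = 0.0242). SPRY4 rose by 0.54 and 0.56 in the same comparisons (adjusted p = 0.0427 and 0.0456). SPRED1 rose by 0.47 with low-dose compound 1 (adjusted p = 0.0466) and by 0.47 with siRNA-1 (adjusted p = 0.0306). At the higher doses none of the 15 tested genes of this list was called, although SPRY2 was at 0.54 and 0.56 (adjusted p = 0.072 and 0.0515). The SPRY2 and SPRY4 calls were lost without control replicate 2, where the differences became 0.42 to 0.61. That of SPRY2 with low-dose compound 2 was also lost without replicate 2 of that group, and the others without either compound array. Both SPRED1 calls were lost whichever of the 4 arrays was left out, with differences of 0.415 to 0.528. DUSP5, an ERK phosphatase, was the 1 gene lower with siRNA-1 (-0.44, named after its value was seen).

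In the list of MAP2K4, 3 of 16 tested genes were lower with siRNA-1. DUSP1, a phosphatase of JNK and p38, gave 701.0 and 636.2 in the control, 93.5 and 139.8 with siRNA-1 and 447.1 to 700.3 with the compounds. DUSP1 fell by 2.33 with siRNA-1 (SE 0.19, adjusted p = 1.73e-05) and was not called with the compounds (-0.25 to -0.49). MAP2K3, a kinase of p38, fell by 0.76 with siRNA-1 (adjusted p = 0.00226), and MAPK12, a p38 kinase, by 0.50 (named after its value was seen). MAP3K5 (ASK1), a kinase upstream of MAP2K4, rose by 0.65, 0.56 and 0.66 with high-dose compound 2, low-dose compound 1 and low-dose compound 2 (adjusted p = 0.0349, 0.0466 and 0.036). It was 0.10 with siRNA-1. Without control replicate 2 the 3 called differences of MAP3K5 became 0.43, 0.34 and 0.43, none called (adjusted p = 0.25, 0.275 and 0.218), and each call was also lost without either compound array.

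BAIAP2L2, an I-BAR protein like MTSS1, was called in opposite directions. Its signal was 110.2 and 65.8 in the control, 133.6 to 199.7 with the compounds and 31.6 and 38.2 with siRNA-1. BAIAP2L2 rose by 0.92 with high-dose compound 2, 0.85 with low-dose compound 1 and 0.76 with low-dose compound 2 (adjusted p = 0.0216, 0.0244 and 0.0435) and was -0.93 with siRNA-1 (called lower, adjusted p = 0.00649), each with an SE of 0.18. The 3 calls of BAIAP2L2 with the compounds were lost without control replicate 2, where they became 0.60, 0.53 and 0.44, and without any 1 compound array. The siRNA-1 call was lost without siRNA-1 replicate 1 (adjusted p = 0.0556), and the difference became -0.61 without control replicate 1 (adjusted p = 0.0315). SINHCAF, a subunit of the SIN3-HDAC complex, fell by 0.77 with siRNA-1 (SE 0.12, adjusted p = 0.00192) and was -0.13 to 0.15 with the compounds.

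The genes most like KISS1 were sought by the distance between their 5 log2 fold changes against the control and those of KISS1, over 10766 other genes and the 6 group means. The nearest were CLDN1 (distance 0.71), SFTA1P (0.94), CTH (0.96), GDF15 (0.96) and IL1A (1.03). CLDN1, the tight junction protein claudin-1, gave 600.8 and 684.7 in the control, 315.8 to 482.8 with the compounds and 31.2 and 45.0 with siRNA-1. GDF15, a secreted stress cytokine, gave 1175.9 and 853.4 in the control, 456.5 to 717.2 with the compounds and 108.7 and 68.0 with siRNA-1. These genes were chosen for their likeness to KISS1, whose siRNA-1 value in that distance was below detection, so the likeness is a description. IL1A, the cytokine interleukin-1 alpha, went from 1138.3 and 1050.6 to 199.4 and 151.6 with siRNA-1, and CTH, an enzyme of cysteine synthesis, from 474.5 and 849.5 to 86.5 and 74.6. SFTA1P, a pseudogene, was low with siRNA-1 (83.4 and 102.7) and not with the compounds, where its differences were -0.07 to 0.07.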

How the data were processed

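Total RNA of 12 MDA-MB231 samples (6 groups, 2 each) was hybridised to Illumina HT-12 v4 arrays. The intensity values deposited by the authors are linear bead signals exported from BeadStudio (version not given in the sources used here), with background subtracted and no normalization. The detection p-values deposited with them stand in another line order than the signals (rank correlation -0.00415 to 0.00291 per array) and were therefore assigned by rank within each array. The log2 values deposited by the authors in the series matrix, with signals below 1 set to 1 and each array's median subtracted, served as an alternative. Of 47324 lines 2 damaged ones were left out. Symbols came from the platform annotation, updated to current names: 30113 probes had 1 symbol, 8 several and 17201 none here.

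Signals were corrected with normexp in limma 3.58.1 (R 4.3.3), using an offset of 16 and negative-control moments derived from detection p-values. After log2 transformation, each array was centred by the median over 11807 probes whose detection p was below 0.01 on every array. A probe entered the fit if 1 group or more had both of its arrays at a detection p below 0.05. The 17910 such probes were fitted with a mean per group over all 12 arrays (lmFit and eBayes, 6 residual and 5.59 prior degrees of freedom), with Benjamini-Hochberg adjustment within each comparison and a threshold of 0.05. The steps were tested on simulated data. A fold against a group in which neither array detected the probe is a lower bound, from the lowest detected signal of each such array. The number of arrays limits the precision.

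Named were all 9 members with their probes, up to 3 called genes per pathway list with the largest fold change, the 5 genes nearest to KISS1, and DOT1L. Members and lists were chosen with earlier results of these data known, and 1 list is not reported on its own here. Alternatives were another background correction, offset, centring, quantile normalization, detection filter, the series matrix, fits of 2 groups, a replicate block, and leaving out each array. Python 3.11.15 drew the figures.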

Additional observations from a re-analysis of the deposited data

How the results depend on the processing

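Calls of KISS1 and NME1 with the compounds depended on the processing. KISS1 with low-dose compound 2 was not called with signals below 1 set to 1 and no background correction (-0.69), with the series matrix (-0.68) or with the arrays of the 2 groups alone (-0.65), while with high-dose compound 2 it was called at an offset of 50 (-0.47) and with quantile normalization (-0.52). Its difference with siRNA-1 was -4.72 without background correction, -2.60 at an offset of 50, -3.44 centred on all probes, -3.50 after quantile normalization and -4.64 in the series matrix. The 2 member probes called with high-dose compound 2 became 0 without background correction, in the series matrix and with 2 groups alone, and 1 centred on all probes. With low-dose compound 1 they became 1 without background correction and centred on all probes, and 0 in the series matrix and with 2 groups alone. With low-dose compound 2 they became 0 without background correction, in the series matrix and with 2 groups alone, and 1 centred on all probes, without a detection filter and with the replicate block. The replicate numbers did not pair the samples (deviations of same-numbered arrays correlated at -0.375 to 0.211 over 15 pairs of groups, or -0.375 to 0.174 by the numbers of the series matrix, where the 2 replicates of high-dose compound 2 are exchanged), and the replicate block changed no other count of member calls past 1.5 times. Of list genes, 7 were higher with high-dose compound 1 when centred on all probes. Without background correction 2 were higher with high-dose compound 2, 4 with low-dose compound 1 and 3 with low-dose compound 2, and the 1 lower with low-dose compound 1 became 0 there and when centred on all probes.

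Small differences changed sign. Centred on all probes, the 2 MAP2K4 probes became 0.0336 (high-dose compound 1), 0.0243 (high-dose compound 2), 0.0751 and 0.0159 (low-dose compound 1), PEBP1 0.00287 (high-dose compound 1) and the dimmer CD82 probe 0.031 (low-dose compound 2). In the series matrix MAP2K4 became 0.0435 with high-dose compound 2 and 0.038 with low-dose compound 1. Leaving out an array in turn, the dimmer CD82 probe ran from -0.10 to 0.20, -0.0563 to 0.24, -0.14 to 0.16 and -0.24 to 0.0596 with high-dose compound 1, high-dose compound 2, low-dose compound 1 and low-dose compound 2. The RECK probe ILMN_1688630 ran from -0.0713 to 0.40, -0.0085 to 0.46 and -0.00988 to 0.46 (high-dose compound 1, high-dose compound 2, low-dose compound 2). MAP2K4 ran from -0.31 to 0.0731, -0.12 to 0.0764 and -0.22 to 0.0162 (high-dose compound 1, high-dose compound 2, low-dose compound 1). With high-dose compound 1 the 3rd NME1 probe ran from -0.44 to 0.0198 and BRMS1 from -0.38 to 0.028, and NME1 between the doses of compound 2 from -0.36 to 0.0983. KISS1 with low-dose compound 2 ran from -0.76 to -0.55. Member calls ran from 0 to 2, 0 to 2, 0 to 2 and 0 to 3 with high-dose compound 1, high-dose compound 2, low-dose compound 1 and low-dose compound 2. Higher list genes ran from 1 to 9, 2 to 10, 1 to 12 and 1 to 10 in that order and from 4 to 8 with siRNA-1. Lower list genes ran from 0 to 1 with compound 1 at both doses and from 5 to 7 with siRNA-1. Over all probes, calls in these 5 comparisons (388, 566, 941, 649 and 1831) ran from 93 to 881, 70 to 1373, 86 to 1552, 59 to 1494 and 782 to 1454 without 1 array, and from 63 to 626, 154 to 912, 273 to 1313, 56 to 939 and 1234 to 1974 under the other alternatives. Dim probes (RECK, MTSS1, GSN in the control) lay near the detection level, which limits their fold changes. The causes of these shifts were not tested.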
